A study of Mus musculus with 1187 samples.

Results

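Erg, Fli1, Ets1, Ets2, Elk3, Tal1, Gata2 and Mef2c encode transcription factors that give endothelial cells their identity, and all 8 were found by symbol among the 46517 genes counted in single endothelial cells of adult mouse brain. The labels name 597 cells of Pdgfb ret/ret mice and 590 cells of Pdgfb ret/+ mice, all C57BL/6 and 3 months old by the design text, and all crossed to a green reporter under Cldn5 and a red reporter under Cspg4. The ret allele removes the retention motif of the growth factor PDGF-B throughout the body, leaves ret/ret brains short of pericytes, and is carried in 1 copy by the ret/+ controls too. Green, not red, cells were sorted singly into 384-well plates and sequenced by Smart-seq2, which makes full-length cDNA without molecular identifiers. The count columns carry a plate and well name, whereas the labels give a running cell number, so no cell could be given a genotype or an animal, ret/ret cells were not compared with ret/+ cells, and the values describe 1187 cells of both genotypes as 1 pooled sample on plates 521 to 524. A single pooled sample allows no test, so no p-value is given. Plates are batches that may coincide with genotype or animal, and the range over plates is the measure of spread.

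ETS proteins bind a GGAA core through a shared winged-helix domain. In endothelium, ERG and FLI1 keep up genes of cell junctions and of vessel identity and restrain inflammatory genes, ETS1 and ETS2 act in angiogenesis and downstream of RAS signalling, and ELK3 is a ternary complex factor that works with serum response factor and can repress. TAL1 is a basic helix-loop-helix protein that binds CANNTG sites with E proteins and is joined by LMO2 to a GATA factor, which in vessels is mainly GATA2; in the embryo this complex marks the common origin of blood and endothelium. MEF2C is a MADS-box factor that is activated by the kinase MAPK7 and held in check by histone deacetylases such as HDAC4, HDAC5, HDAC7 and HDAC9.

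Gata2 and Erg were higher in cells with arterial markers than in cells with venous markers on all 4 plates, with log2 ratios of 0.57 to 1.14 and of 0.23 to 0.90. Ets2 was higher too, with log2 ratios of 0.00 to 1.88, but was nearly level on plate 523. Over all plates the log2 ratio was 0.93 for Gata2, 0.88 for Ets2 and 0.53 for Erg. Promoter sequences are shown for Gata2 and Erg only (RefSeq, GRCm38.p6, 250 bases before to 50 after each start, 5′ to 3′ on the strand of the gene). Capitals mark the ETS core GGAA and the GATA core, each also read as TTCC and TATC on the other strand.
Gata2 start 1, chr6:88193641-88193940, plus strand: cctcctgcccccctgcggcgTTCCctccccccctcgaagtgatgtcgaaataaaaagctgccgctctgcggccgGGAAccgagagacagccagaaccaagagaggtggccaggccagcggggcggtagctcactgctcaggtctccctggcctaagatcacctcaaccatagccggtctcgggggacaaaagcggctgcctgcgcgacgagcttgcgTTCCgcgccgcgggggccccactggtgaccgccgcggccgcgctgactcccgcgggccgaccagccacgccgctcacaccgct
Gata2 start 2, chr6:88198414-88198713, plus strand: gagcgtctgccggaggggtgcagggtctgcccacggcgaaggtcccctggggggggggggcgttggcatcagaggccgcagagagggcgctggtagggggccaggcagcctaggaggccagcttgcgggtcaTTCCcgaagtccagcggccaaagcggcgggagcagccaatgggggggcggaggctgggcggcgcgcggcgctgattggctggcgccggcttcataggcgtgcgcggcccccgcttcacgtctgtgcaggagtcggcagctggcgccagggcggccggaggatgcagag
Erg start 1, chr16:95586544-95586843, minus strand: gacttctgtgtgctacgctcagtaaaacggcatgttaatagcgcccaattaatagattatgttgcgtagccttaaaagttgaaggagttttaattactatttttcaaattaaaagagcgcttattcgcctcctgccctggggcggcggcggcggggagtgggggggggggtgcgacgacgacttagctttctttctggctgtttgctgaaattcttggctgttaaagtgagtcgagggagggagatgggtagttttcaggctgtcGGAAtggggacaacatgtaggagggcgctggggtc
Erg start 2, chr16:95530316-95530615, minus strand: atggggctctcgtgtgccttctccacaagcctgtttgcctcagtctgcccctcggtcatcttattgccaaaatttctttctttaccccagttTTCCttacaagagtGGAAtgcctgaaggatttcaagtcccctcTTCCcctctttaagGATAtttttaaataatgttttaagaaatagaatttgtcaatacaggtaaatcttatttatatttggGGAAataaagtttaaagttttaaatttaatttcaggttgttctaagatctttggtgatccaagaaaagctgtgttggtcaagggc
Erg start 3, chr16:95459299-95459598, minus strand: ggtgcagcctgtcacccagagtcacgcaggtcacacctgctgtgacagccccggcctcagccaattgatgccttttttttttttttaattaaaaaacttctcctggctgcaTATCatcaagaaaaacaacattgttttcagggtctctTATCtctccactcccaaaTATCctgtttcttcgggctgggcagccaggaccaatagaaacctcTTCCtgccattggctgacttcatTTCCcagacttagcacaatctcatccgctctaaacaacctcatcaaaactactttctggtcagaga

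Across the windows of Gata2, GGAA occurred 3 times at the first start and 1 time at the second, GATA at neither, and the E-box CANNTG 1 time, at the second. The Erg windows held GGAA 1, 4 and 2 times and GATA 0, 1 and 3 times at starts 1, 2 and 3, with CANNTG 2 times at start 3 only. The longer ETS sequence CCGGAA, which contains GGAA, was in none of these windows. On both strands, GGAA was in 96.0% of 32851 promoter windows of this length, GATA in 57.9%, CANNTG in 72.3% and CCGGAA in 14.9%, so a GGAA match sets neither gene apart. A match describes letters and not a bound site. Of the 8 genes, 6 had a window in the promoter table.

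The sorted cells were endothelial by their defining markers. At 100000 reads per cell, Pecam1 had a read in 98.7% of cells, Cdh5 in 96.9% and Kdr, the lowest endothelial marker looked at, in 85.8%. Cldn5, whose reporter was used for the sort, had a read in 100%. Depth ranged from 100779 to 584112 reads per cell, with a median of 360947, and a cell had a read of 1402 to 11043 genes, with a median of 4462. Plates 521 to 524 held 300, 290, 285 and 312 cells. Cells with 3 or more markers of another cell type at 100 CPM or more numbered 23.

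Levels are given as CPM, the reads of a gene per 1000000 reads after summing over cells; counting intervals are narrow at this depth, 32.2 to 33.3 CPM for Tal1 as the lowest gene, and cover counting error only, since Smart-seq2 reads are not independent molecules. Erg (chromosome 16, 95359169 to 95586593, minus strand, GRCm38) stood at 150.9 CPM over all cells and at 171.6, 151.4, 142.5 and 137.7 CPM on plates 521 to 524. Fli1 (chromosome 9, 32422204 to 32542861, minus strand) stood at 363.1 CPM and at 436.2, 405.4, 337.4 and 276.4 CPM on these plates. Both were highest on plate 521 and lowest on plate 524, 1.24-fold apart for Erg and 1.58-fold for Fli1.

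Ets1 lies 93.4 kb from Fli1 (chromosome 9, 32636221 to 32757820, plus strand), and Ets2 lies 115 kb from Erg (chromosome 16, 95702075 to 95721051, plus strand). Ets1 stood at 451.5 CPM over all cells and at 353.1, 355.5, 590.2 and 505.2 CPM on plates 521 to 524, so that it was lowest where its neighbour Fli1 was highest. Ets2 differed least between plates, with 216.9, 222.5, 213.0 and 206.3 CPM. Elk3 (chromosome 10, 93247414 to 93311135, minus strand) had 188.5, 141.0, 186.8 and 192.3 CPM, with plate 522 below the others. Elk3 overlaps Cdk17 on the opposite strand (122 CPM), and whether counting used strand is not known, so that reads falling on both genes cannot be told apart. Fli1 overlaps Gm27201 on the opposite strand (8.94 CPM) and several predicted genes on its own strand, of which Gm37474 was highest at 26.7 CPM.

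Gata2 (chromosome 6, 88193891 to 88207032, plus strand) was nearly level between plates, with 205.0, 202.5, 213.1 and 194.9 CPM. Its partner Tal1 (chromosome 4, 115056426 to 115071755, plus strand) was the lowest of the 8, with 33.7, 30.1, 40.2 and 27.1 CPM. Mef2c (chromosome 13, 83504034 to 83667080, plus strand) had 168.4, 158.9, 175.9 and 144.4 CPM. Fli1 and Ets1 were 1.5-fold or more apart between their highest and lowest plate, 2 of 8 genes, against 40.6% of the 8240 genes at 20 CPM or more; the median fold over all those genes was 1.43. The 2 called genes depend on single plates: without plate 521, 523 or 524 the count was 1.

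**Figure D1:**
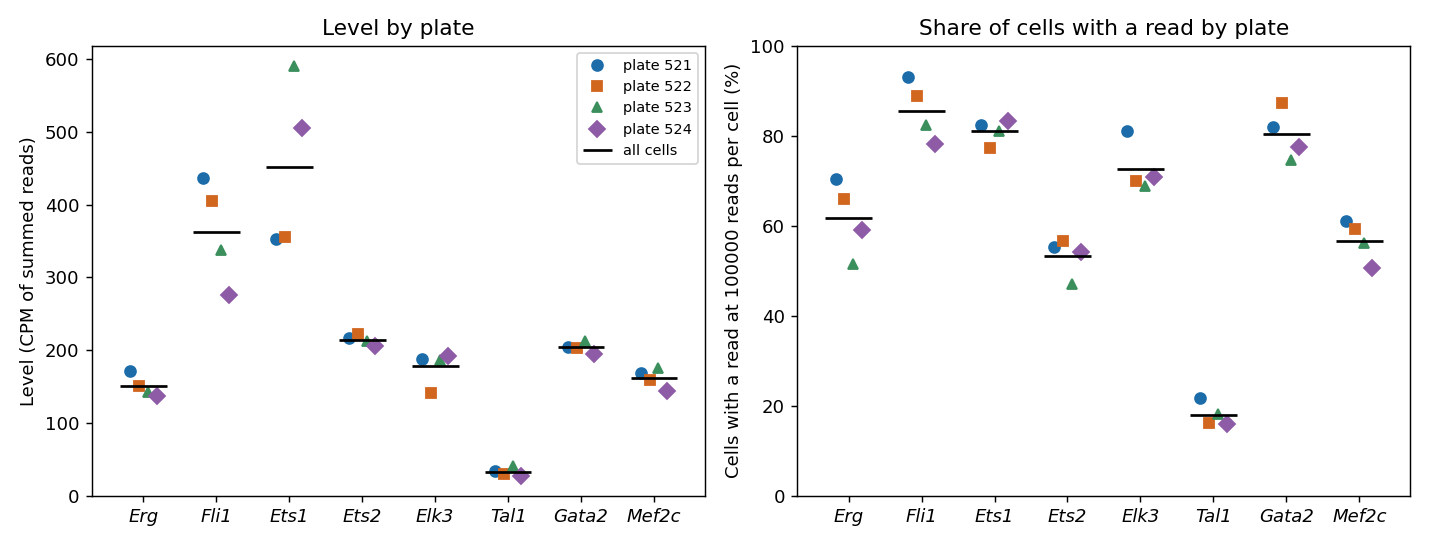
Left, level of each gene in CPM of summed reads; right, share of cells with a read at 100000 reads per cell. Points are the 4 plates and lines are all cells. Fli1 spans 276.4 to 436.2 CPM and Ets1 353.1 to 590.2 CPM, while Ets2 and Gata2 are nearly level, and Tal1 has a read in 18.0% of cells.

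Per kilobase of exon, the scale on which levels of different genes can be set side by side, Fli1 was highest at 104 CPM per kb, followed by Ets1 at 53.3, Erg at 43.5, Elk3 at 39.1, Gata2 at 37.8, Ets2 at 37.1, Mef2c at 10.3 and Tal1 at 7.48. Exon length counts every annotated isoform, whether used here or not, and was longest for Mef2c with 15715 bases. At 100000 reads per cell, a read was found in 85.6% of cells for Fli1, 81.0% for Ets1, 80.4% for Gata2, 72.7% for Elk3, 61.8% for Erg, 56.7% for Mef2c, 53.3% for Ets2 and 18.0% for Tal1.

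The genes differed in how unevenly cells held their reads. The median and the highest cell were at 304 and 2048 CPM for Fli1, at 342 and 2551 CPM for Ets1, and at 114 and 1814 CPM for Gata2. For Ets2 the median cell was at 16.2 CPM and the highest at 4467 CPM. For Tal1 the median cell had no read and the highest was at 1670 CPM. The 10% of cells with the most reads of the gene, not scaled for depth, held 31.2% of the Fli1 reads, 48.7% of the Ets2 reads and 91.3% of the Tal1 reads. Over the cells with a read, without thinning, the median level was 115 CPM for Tal1, 188 CPM for Gata2 and 372 CPM for Fli1, so Tal1 was both read in fewer cells and lower in those cells.

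No cell lacked a read of all 8 genes at fixed depth. The median cell had a read of 5, and 38 cells (3.20%) had a read of all 8. All 5 ETS genes were read in 260 cells (21.9%). Erg and Fli1 were read together in 632 cells (53.2%), Fli1 without Erg in 384, Erg without Fli1 in 101 and neither in 70; the product of the shares of the 2 genes is 52.9%. Tal1 and Gata2 were read together in 176 of the 214 cells with a Tal1 read, and 14.8% of all cells compares with a product of shares of 14.5%.

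Vessel zones were read from fixed marker lists that contain none of the 8 genes. Each marker was standardised over the cells of its own plate. A cell was classed as an arterial-, venous- or tip-marker cell when the mean standardised level of that list reached 0.5 and was the highest of these, as a capillary-marker cell when none did and the capillary list was above 0, and as marker-poor otherwise. There were 128 arterial-, 111 venous-, 82 tip- and 527 capillary-marker cells and 339 marker-poor cells. The classes are ranges of a score and not cell types: 126 cells lay within 0.1 of the threshold, and 156 capillary-marker or marker-poor cells had a capillary score within 0.1 of 0. Median depth was 373848 reads in arterial-, 358043 in venous- and 364927 in capillary-marker cells, and the median number of genes read was 4837, 5210 and 4348. Each of the 8 genes was weakly correlated with the number of genes read in a cell (mean r within plates 0.10 to 0.26 over 1187 cells), and the part of this in the differences below was not tested.

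Gata2 was the gene most clearly tied to arterial markers. It had 425.4, 417.5, 405.7 and 304.9 CPM in arterial-marker cells of plates 521 to 524, against 209.3, 188.9, 202.0 and 204.4 CPM in venous-marker cells and 159.1, 167.7, 189.6 and 158.1 CPM in capillary-marker cells. Every plate value of arterial-marker cells was above every value of venous- and capillary-marker cells. Tip-marker cells had 151.7, 123.1, 151.3 and 309.0 CPM on plates 521 to 524. On plate 524, with 16 tip-marker cells, this was slightly above the value of arterial-marker cells. The log2 ratio of arterial- to capillary-marker cells was 1.17 (0.94 to 1.41 over plates), and that of arterial- to venous-marker cells 0.93 (0.57 to 1.14). At fixed depth a Gata2 read was found in 96.9% of arterial-marker cells (95% Clopper-Pearson interval 92.2% to 99.1%), against 88.3% of venous-marker (80.8% to 93.6%) and 76.7% of capillary-marker cells (72.8% to 80.2%). The intervals for arterial- and venous-marker cells overlap, and all such intervals cover the counting of cells of 1 pooled sample only.

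Gata2 is also known from mast cells and lymphatic endothelium. The 6 mast cell and basophil markers summed to 7.35 CPM in arterial-marker cells (2.00 to 12.1 over plates), 19.0 CPM in venous-marker cells and 8.73 CPM in capillary-marker cells, with Mcpt4 and Tpsb2 at 0 in all of them. The 5 lymphatic markers summed to 99.8 CPM in arterial- and 205 CPM in capillary-marker cells, with Prox1, Lyve1 and Ccl21a at 0 in arterial-marker cells. The 5 fibroblast markers summed to 58.4 CPM in arterial-marker cells (0.198 to 239 over plates), 24.4 CPM in venous-marker cells and 5.04 CPM in capillary-marker cells. Without the 23 cells that carry markers of another type, the log2 ratio of Gata2 was 1.16 against capillary- and 0.94 against venous-marker cells.

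Fli1 ran the other way. It had 286.2, 212.9, 301.7 and 206.7 CPM in arterial-marker cells of plates 521 to 524, against 559.7, 554.9, 485.5 and 444.2 CPM in venous-marker cells. In capillary-marker cells it had 402.0, 327.6, 335.0 and 273.3 CPM, so that all plates of venous-marker cells lay above all plates of both other classes, while arterial- and capillary-marker cells overlapped. The log2 ratio was -1.05 for arterial- over venous-marker cells (-1.38 to -0.68) and 0.65 for venous- over capillary-marker cells (0.48 to 0.76). A read was found in 85.9% of arterial-marker cells (78.7% to 91.4%), against 96.4% of venous-marker (91.0% to 99.0%) and 83.1% of capillary-marker cells (79.6% to 86.2%), with overlap between arterial- and venous-marker cells. The 7 microglia markers, a cell type in which Fli1 is also known, summed to 72.9 CPM in arterial-marker cells, 115 CPM in venous-marker cells (33.4 to 170 over plates) and 93.8 CPM in capillary-marker cells; the log2 ratio of arterial- to venous-marker cells was -1.06 without the 23 cells with markers of another type. The venous over capillary ratio fell short of 1.5-fold at a score threshold of 0.75 (0.54) and with the even-numbered markers only (0.42).

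Erg, the closest relative of Fli1, did not follow it. Erg had 174.8, 223.4, 111.1 and 150.7 CPM in arterial-marker cells, against 130.7, 119.6, 94.7 and 91.2 CPM in venous-marker cells. The log2 ratio was 0.53, under 1.5-fold, and was positive on all 4 plates (0.23 to 0.90), although the plate ranges overlap. Capillary-marker cells had 178.3, 157.9, 146.9 and 135.5 CPM, all above the 4 venous values. On the scale per kilobase, Fli1 stood at 72.0 and Erg at 47.1 CPM per kb in arterial-marker cells, against 149 and 32.5 CPM per kb in venous-marker cells.

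**Figure D2:**
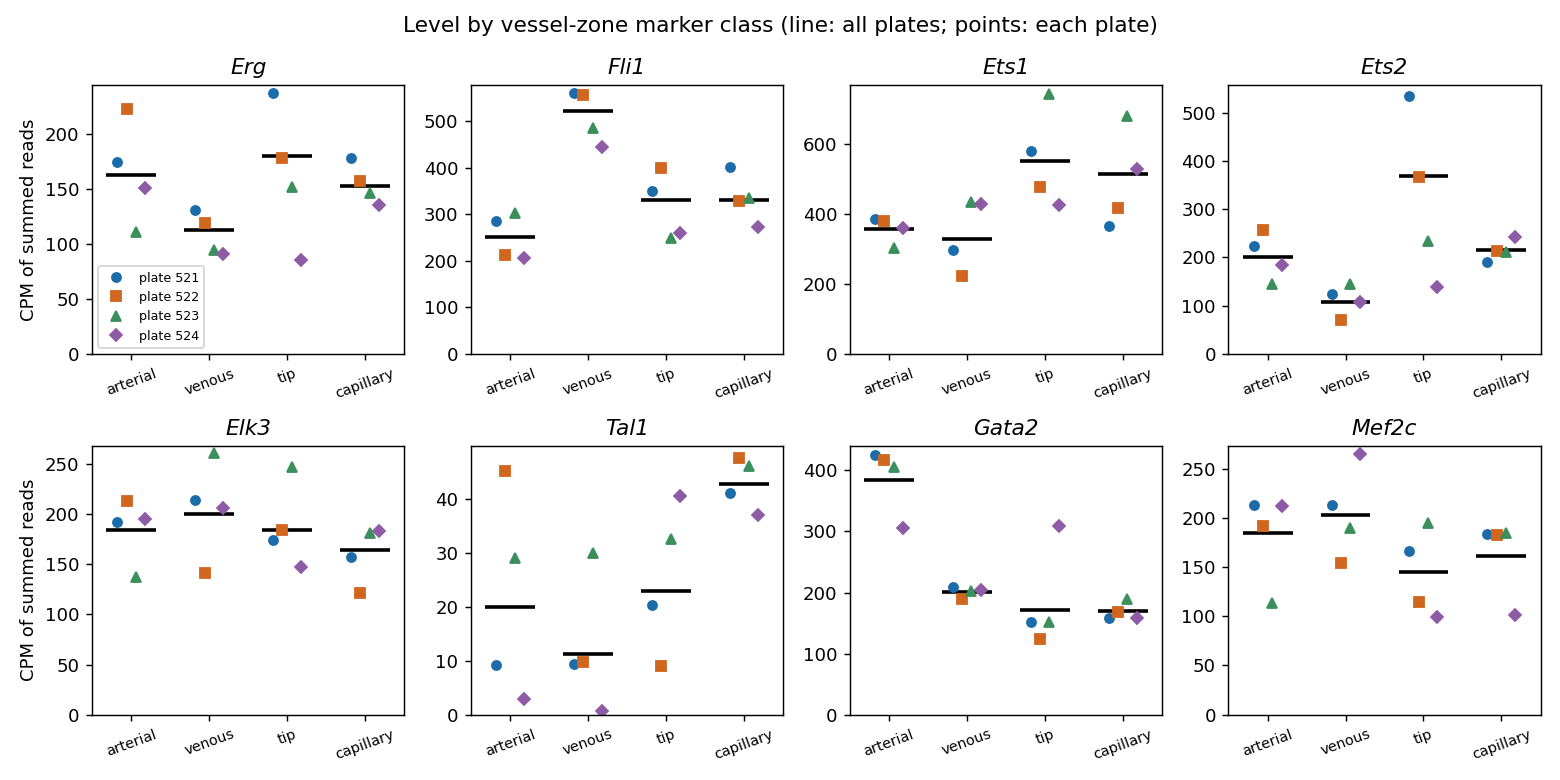
Level of each gene in CPM of summed reads in arterial-, venous-, tip- and capillary-marker cells, with a line for all plates and a point for each plate. Arterial-marker cells stand above venous- and capillary-marker cells for Gata2 (304.9 to 425.4 CPM), and venous-marker cells stand above the others for Fli1 (444.2 to 559.7 CPM), while the classes overlap for Elk3 and Mef2c.

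Ets2 and Ets1 were low in venous-marker cells. Ets2 had 124.3, 69.5, 144.1 and 106.7 CPM in venous-marker cells of plates 521 to 524, against 190.8, 213.0, 212.3 and 242.3 CPM in capillary-marker cells (log2 ratio -0.99, plates -1.60 to -0.56), with no overlap. A read was found in 39.6% of venous-marker cells (30.5% to 49.4%), against 53.5% of capillary-marker cells (49.1% to 57.8%). Ets1 had 296.1, 221.4, 433.5 and 427.3 CPM in venous-marker cells, against 364.6, 416.4, 678.9 and 528.2 CPM in capillary-marker cells (log2 ratio -0.65, plates -0.91 to -0.30). It was lower within each plate, although the ranges over plates overlap because Ets1 itself differed between plates. Both were under 1.5-fold at a score threshold of 0.25, with log2 ratios of -0.55 for Ets2 and -0.54 for Ets1, and with the even-numbered markers only, at -0.36 and -0.34, and Ets1 also without plate 522 (-0.55) or plate 523 (-0.54). The 6 astrocyte markers summed to 125 CPM in venous-marker cells (72.0 to 147 over plates), against 279 CPM in capillary-marker cells (228 to 384), and the 7 pericyte markers to 37.3 CPM (12.8 to 96.1) against 78.8 CPM (13.1 to 144). Without the 23 cells with markers of another type the log2 ratio was -0.99 for Ets2 and -0.63 for Ets1; the part of the remaining marker reads was not tested.

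Arterial-marker cells had 223.5, 257.5, 144.2 and 183.5 CPM of Ets2, a log2 ratio of 0.88 to venous-marker cells (0.84, 1.88, 0.00 and 0.78 on plates 521 to 524) and of -0.11 to capillary-marker cells. The ratio to venous-marker cells was under 1.5-fold without plate 522 (0.57), at a score threshold of 0.25 (0.48), with the odd-numbered markers (0.58) and with the even-numbered markers (0.22). Tip-marker cells, those high for their own plate in genes of sprouting endothelium, had the highest Ets2 over all plates, 369.8 CPM, against 216.0 CPM in capillary-marker cells. Their plate values of 534.6, 366.1, 234.3 and 139.1 CPM differed in direction from capillary-marker cells, with log2 ratios of 1.48, 0.78, 0.14 and -0.80. Without plate 521, which held 30 of the 82 tip-marker cells, the log2 ratio was 0.25 in place of 0.77. The tip marker Apln stood at 341, 201, 0.00972 and 3.78 CPM over all cells of plates 521 to 524. Since markers were standardised within plates, the tip class need not mark the same level of such genes on each plate. The part of this in the Ets2 ratios was not tested. Ets1 had 356.7 CPM in arterial-marker cells, a log2 ratio of -0.53 to capillary-marker cells, which was -0.68 without plate 521 and -0.25 without plate 523.

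Tal1 was lower in arterial- and venous-marker cells than in capillary-marker cells. It had 9.17, 45.3, 29.0 and 2.92 CPM in arterial-marker cells of plates 521 to 524 and 9.37, 9.76, 30.0 and 0.733 CPM in venous-marker cells, against 41.2, 47.6, 46.2 and 37.1 CPM in capillary-marker cells. The log2 ratio to capillary-marker cells was -1.06 for arterial-marker cells (-3.28 to -0.07 over plates) and -1.84 for venous-marker cells (-4.46 to -0.61). These levels rest on the reads of 28 arterial-, 23 venous- and 132 capillary-marker cells. At 100000 reads per cell, a Tal1 read was found in 20 of 128 arterial-marker cells, 14 of 111 venous-marker cells and 104 of 527 capillary-marker cells, shares of 15.6% (9.81% to 23.1%), 12.6% (7.07% to 20.3%) and 19.7% (16.4% to 23.4%) whose intervals overlap. The 3 highest cells held 40.2% of the reads in arterial-, 46.0% in venous- and 15.6% in capillary-marker cells. The 5 megakaryocyte and platelet markers, of a lineage in which Tal1 is known, summed to 2.54 CPM in arterial-, 4.25 CPM in venous- and 13.6 CPM in capillary-marker cells, and their part in the result was not tested.

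Elk3 and Mef2c did not reach 1.5-fold in any of these comparisons. Elk3 stood at 184.2 CPM in arterial-, 200.1 CPM in venous-, 183.9 CPM in tip- and 164.0 CPM in capillary-marker cells. Mef2c stood at 184.3, 203.1, 144.8 and 161.4 CPM in these classes. Their plate ranges overlapped in every pair of classes.

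Over the 8 genes, 2 were 1.5-fold or more apart between arterial- and capillary-marker cells (Gata2 higher, Tal1 lower), against 23.2% of 8777 genes (12.2% higher, 11.0% lower). Between venous- and capillary-marker cells it was 4 of 8 (Fli1 higher, Ets1, Ets2 and Tal1 lower), against 20.1% of 8727 genes (10.5% higher, 9.56% lower). Between tip- and capillary-marker cells it was 2 of 8 (Ets2 higher, Tal1 lower), against 21.4% of 8638 genes (10.9% higher, 10.5% lower), and it was 1 without plate 521 or plate 522. Between arterial- and venous-marker cells it was 4 of 8 (Ets2, Tal1 and Gata2 higher, Fli1 lower), against 31.4% of 8960 genes (16.1% higher, 15.3% lower), and it was 2 without plate 522. The Tal1 difference between arterial- and venous-marker cells was positive on 2 of 4 plates (-0.03, 2.11, -0.04 and 1.18 on plates 521 to 524) and was under 1.5-fold in 5 of 16 alternatives, down to 0.11 without plate 522. The Tal1 ratio of tip- to capillary-marker cells (-0.88) ran from -2.27 to 0.13 over plates, with 3 cells holding 53.5% of the Tal1 reads of tip-marker cells. A read was found in 19.5% of tip- and 19.7% of capillary-marker cells at fixed depth, and the ratio was -0.43 when CPM was averaged over cells, -0.40 with thinned cells and -0.55 without plate 522. The share for arterial- over capillary- and for tip- over capillary-marker cells is near that of all genes and is no result about the genes as a set. These comparisons share cells, so their counts are not separate observations.

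**Figure D3:**
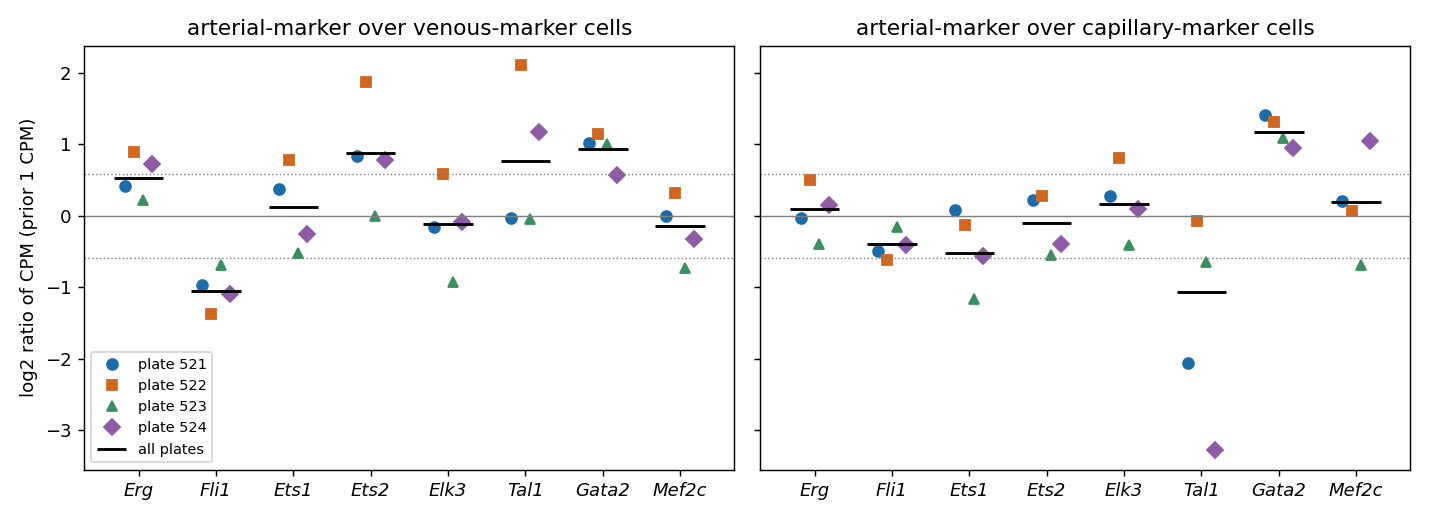
Log2 ratio of CPM in arterial- over venous-marker cells (left) and arterial- over capillary-marker cells (right), by plate (points) and over all plates (lines), with dotted lines at 1.5-fold. Gata2 is above 0 and Fli1 below 0 on all plates in both panels, and Tal1 spreads from -3.28 to -0.07 in the right panel.

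To see the pattern without the score threshold, the cells of each plate were ranked by arterial minus venous marker score and split into 5 groups of 237 or 238 cells, an order chosen after the classes had been seen. From the venous end to the arterial end, Gata2 had 172.5, 164.0, 215.7, 160.2 and 307.3 CPM, highest at the arterial end, with the middle group above both of its neighbours on each plate. Fli1 had 495.6, 340.2, 361.2, 346.7 and 276.0 CPM and moved mostly at the ends. Erg had 128.5, 145.9, 162.1, 138.4 and 179.6 CPM. The log2 ratio of the arterial to the venous end was 0.83 for Gata2 (0.65 to 1.03 over plates), -0.84 for Fli1 (-1.07 to -0.74) and 0.48 for Erg (0.40 to 0.55), with the same sign on all 4 plates; between these ends 11.0% of all genes were 1.5-fold or more higher and 9.91% lower, 20.9% in all. Ets2 had a log2 ratio of 0.57, from -0.31 to 1.13 over plates. The ends hold 126 of the arterial- and 109 of the venous-marker cells, so they are largely the same cells.

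**Figure D4:**
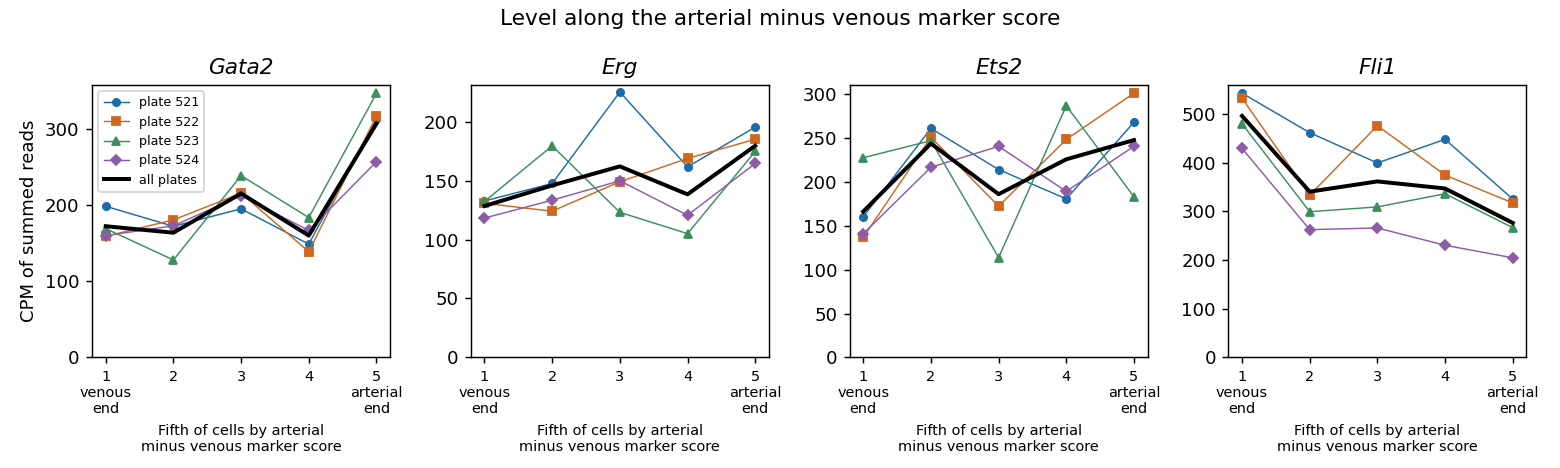
Level of Gata2, Erg, Ets2 and Fli1 in CPM of summed reads in 5 groups of cells ordered by arterial minus venous marker score, from the venous end (1) to the arterial end (5), by plate and over all plates. Gata2 reaches 307.3 CPM and Fli1 276.0 CPM at the arterial end, against 172.5 and 495.6 CPM at the venous end.

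Single zone markers gave smaller differences. Gata2 had 278.8 CPM in the 283 cells with a read of Bmx, an arterial kinase gene, against 180.3 CPM in cells without (log2 ratio 0.63, higher on 4 of 4 plates, 0.47 to 0.78, with 10.9% of all genes 1.5-fold or more apart). With Gkn3, another arterial marker, it had 291.8 CPM against 180.7 CPM (0.69, 4 of 4 plates, 0.45 to 0.94, and 10.3% of all genes). These were the only ones of 48 pairs of gene and marker that reached 1.5-fold, and none did when the marker read was taken without thinning. Gata2 was 183.5 CPM in cells with a read of Mfsd2a, the capillary lipid transporter, against 237.4 CPM in cells without (-0.37, 4 of 4 plates, -0.56 to -0.37). Ets1 was 510.4 CPM against 353.7 CPM (0.53, 4 of 4 plates, 0.20 to 0.53, and 8.72% of all genes). The Ets1 ratio over all plates lies at the top of its plate range. Ets1 itself was higher on plates 523 and 524, and the part of this in the ratio was not tested. Fli1 had 484.6 CPM in the 188 cells with a read of Nr2f2, the venous transcription factor, against 340.3 CPM in cells without (0.51, 4 of 4 plates, 0.13 to 0.80, and 11.0% of all genes). With the venous transporter Slc38a5, Fli1 had 408.9 CPM against 307.9 CPM (0.41, 4 of 4 plates, 0.17 to 0.44, and 6.17% of all genes). Ets2 had 248.2 CPM in cells with a read of the tip marker Angpt2, against 199.5 CPM in cells without (0.31, 4 of 4 plates, 0.10 to 0.65, and 9.69% of all genes).

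For each factor, the 3 genes that varied most closely with it from cell to cell were taken from 6764 candidates. Over the 1187 cells, r of log2(CPM + 1) was taken within plates and averaged. Of these 3, Hs3st1 reached 0.2 or more for Fli1 (0.20), Nr4a1 for Ets2 (0.22) and Alpl for Gata2 (0.23). None did for Erg, Elk3, Tal1 and Mef2c. For Ets1, Gm16897 (0.22), Cd34 (0.21) and Tiam1 (0.21) all did, so other genes may also reach 0.2 with Ets1. Such correlations are weak, rest on cells that share libraries and depth, and are given as a description. Alpl, an alkaline phosphatase gene, had 201.0 CPM in cells with a Gata2 read, against 72.0 CPM in cells without, and was higher on each plate. Nr4a1, an immediate early gene, had 339.9 CPM in cells with an Ets2 read, against 191.0 CPM in cells without. Among the 8 genes themselves the highest mean r was 0.11, between Ets1 and Ets2. Cells without a read can lower such r, so a low value does not show that the factors vary apart.

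The rest of the ETS family was lower. Of 21 other ETS genes, 6 were at 20 CPM or more over all cells, with most reads for Elk4 (115 CPM, 18.0 CPM per kb), Elf1 (92.9 CPM, 13.8 per kb) and Gabpa (83.2 CPM, 14.6 per kb), and 9 were under 1 CPM. Between arterial- and capillary-marker cells, 0 of the 7 that reached 20 CPM in either class were higher by 1.5-fold and 2 lower, with a median log2 ratio of -0.13, against 0.01 over all genes, of which 12.2% were higher and 11.0% lower; Etv6, known as a repressor, had 40.1 CPM against 63.9 CPM (-0.66, plates -2.52 to 0.38). Among cofactors and relatives of TAL1 and GATA2, 7 of 15 were at 20 CPM or more, with most reads for the E protein gene Tcf4 (505 CPM), the bridge Lmo2 (393 CPM) and Tcf12 (198 CPM). Per kilobase Lmo2 was highest, at 181 CPM per kb, against 18.5 for Tcf4 and 12.8 for Tcf12. Lyl1, the closest relative of Tal1, had 63.0 CPM in venous-marker cells against 33.5 CPM in capillary-marker cells (0.89, plates 0.34 to 1.03), the direction opposite to that of Tal1, while Tcf4 had 344 CPM against 544 CPM (-0.66). In that comparison 1 of 9 measured members was higher and 2 lower (median -0.04), against 10.5% and 9.56% of all genes. Tcf3, another E protein gene, had 106 CPM in arterial-marker cells against 54.6 CPM in venous-marker cells (0.95, plates 0.59 to 2.60).

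Of a list of the MEF2 family, its repressors and the activating kinase gene Mapk7, 6 of 8 were at 20 CPM or more. Most reads were for Hdac7 (229 CPM, 33.9 CPM per kb), Mef2a (218 CPM, 14.9 per kb) and Mef2d (153 CPM, 25.5 per kb). Between venous- and capillary-marker cells 0 of 7 were higher and 3 lower (median -0.29), where 10.5% of all genes were higher and 9.56% lower. Of these, Hdac9 had 4.41 CPM against 23.8 CPM (-2.20, plates -4.62 to -1.61). Hdac5 had 40.0 CPM against 64.9 CPM (-0.69, plates -1.35 to 0.25) and Hdac4 34.6 CPM against 52.8 CPM (-0.59, plates -1.47 to -0.08).

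Of 22 other endothelial transcription factors, 19 were at 20 CPM or more, with most reads for the hypoxia factor Epas1 (1675 CPM), the Wnt effector Lef1 (680 CPM) and the SoxF gene Sox18 (499 CPM). Per kilobase Sox18 was at 308, Epas1 at 299.6 and Lef1 at 77.3 CPM per kb. In arterial- against capillary-marker cells 7 of 19 were higher and 2 lower (median 0.31, against 0.01 over all genes), where 12.2% of all genes were higher and 11.0% lower. Sox18 had 772 CPM against 488 CPM (0.66, plates 0.54 to 0.81), Epas1 2573 CPM against 1637 CPM (0.65, plates 0.47 to 1.01) and the SoxF gene Sox17 486 CPM against 242 CPM (1.01, plates 0.20 to 2.14). Klf4 (0.82, plates 0.09 to 1.67) was also higher on all 4 plates. Nr4a1 (1.01, plates -0.47 to 2.51), Klf2 (0.66, plates -0.10 to 1.18) and Rbpj (0.64, plates -1.31 to 1.05) were higher on 3 of 4 plates. Lef1 had 487 CPM against 740 CPM (-0.60, plates -0.70 to -0.35), and Ppard 7.24 CPM against 27.1 CPM (-1.77, plates -4.51 to -0.86). The Gata2 ratio of 1.17 was larger than each of the 7.

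Of 23 genes known as ERG or FLI1 targets, 22 were at 20 CPM or more, with most reads for Cldn5 (4038 CPM, 2852 CPM per kb), Flt1, which encodes a receptor for VEGF (3455 CPM, 256 per kb), and the TGF-beta coreceptor Eng (1881 CPM, 465 per kb). Between arterial- and venous-marker cells, where the ratios of Erg and Fli1 had opposite signs, 3 of 23 targets were higher and 8 lower (median -0.10), where 16.1% of all genes were higher and 15.3% lower. Dll4, a Notch ligand, had 293 CPM in arterial-marker cells against 59.6 CPM in venous-marker cells (2.28, plates 1.87 to 3.02), and Flt1 had 3862 CPM against 2190 CPM (0.82, plates 0.56 to 1.11). Vwf, the von Willebrand factor gene, had 744 CPM against 2089 CPM (-1.49, plates -1.78 to -1.02), and Robo4, a guidance receptor gene, had 371 CPM against 799 CPM (-1.10, plates -1.54 to -0.53). The list also holds Apln, which is among the tip markers that set the classes.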

How the data were processed

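The authors sorted single brain endothelial cells and sequenced them by Smart-seq2, per the labels' protocols. They deposited whole-number counts of reads per gene and cell; the submitters' processing notes name the builds GRCm38 and mm10, featureCounts, Subread 1.4.6-p5, SAMtools 0.1.18 and TopHat2 2.1.1. Strand handling during counting is not stated in the notes used here. Depth was 100779 to 584112 reads per cell. Gene positions came from GENCODE M21 and promoters from RefSeq GRCm38.p6. No column could be matched to a cell label, so the planned comparison of ret/ret with ret/+ cells was not made, no column was left unused (1187 of 1187), and the cells were 1 pooled sample with plate as batch.

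Counts were summed and scaled to CPM with Python 3.11.15, NumPy 2.4.6, pandas 2.3.3 and SciPy 1.17.1. Log2 ratios used a prior of 1 CPM; a ratio of 1.5-fold or more is a descriptive threshold, and genes at 20 CPM or more in either class are its background. Shares used cells thinned to 100000 reads, which lost none. Zone scores are means over markers of log2(CPM + 1) standardised within plate, for markers read in 1% of cells or more. Ratios and the 1.5-fold calls were tested on simulated data. Levels and shares carry 95% exact Poisson or Clopper-Pearson intervals. No cell was filtered and no doublet caller was run. Alternatives changed scaling, depth, score threshold, markers, prior, minimum level, cells and plates.

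All 8 genes are named in each result. From each related list, the 3 most abundant and up to 5 past 1.5-fold were eligible by size. Klf2 and Rbpj are named as well. Of the 3 genes most like each of the 8 in pattern, those at r of 0.2 or more are named. The genes and lists were chosen with earlier results of these data known.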

Additional observations from a re-analysis of the deposited data

How the results depend on the processing

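Gata2 in arterial- against capillary-marker cells (log2 ratio 0.96 to 1.31) and against venous-marker cells (0.86 to 1.05), Fli1 in arterial- against venous-marker cells (-1.17 to -0.83), and Tal1 in arterial- (-1.62 to -0.65) and venous- (-2.37 to -0.89) against capillary-marker cells stayed past 1.5-fold in all 16 alternatives. The count of genes past 1.5-fold between arterial- and capillary-marker cells was 2 or 3 in all of them. Between arterial- and venous-marker cells the count of 4 became 2 at a score threshold of 0.25 and 2 with the odd-numbered markers, and ran from 2 to 5 when a plate was left out. Between venous- and capillary-marker cells the count of 4 became 2 at a threshold of 0.25 and 1 with the even-numbered markers, and ran from 3 to 4 when a plate was left out. Between tip- and capillary-marker cells the count of 2 became 1 when CPM was averaged over cells, with thinned cells, at a threshold of 0.25 and with the odd-numbered markers, and ran from 1 to 2 when a plate was left out. Leaving out a plate also moved the count of genes uneven between plates (1 to 2), of the pairs of gene and zone marker (3 to 4) and of genes of like pattern (6 to 11); without thinning the pairs numbered 0. The cause of these shifts was not tested. Among the other values, 388 stayed within their spread or interval, 522 moved beyond it, most of them beyond a narrow counting interval, and 0 of those past 1.5-fold changed sign. Scalings moved the median of all genes by 0.051 or less. No paired analysis was possible because the columns carry no replicate number and no genotype.

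The main limits are that cells could not be tied to genotype or animal, that 28 and 23 cells carry the Tal1 values of arterial- and venous-marker cells, and that the classes follow the chosen markers.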
